A study of Mus musculus with 15 samples.

Results

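The cytosolic ribosomal protein genes were 83 of the 33696 features counted in single cells of mouse aorta. They were chosen by symbol alone: every row named Rpl or Rps with a number, followed at most by 1 of the letters a, l, x or y and 1 digit, or named Rpsa, Rplp0, Rplp1 or Rplp2, without rows marked as pseudogenes, mitochondrial ribosomal proteins or ribosomal protein kinases. Of the 83 members, 32 were assigned by their symbol to the small ribosomal subunit and 51 to the large subunit, and each had at least 1 UMI. A UMI (unique molecular identifier) stands for 1 captured RNA molecule. All 83 symbols were found in the GENCODE annotation of GRCm39, where they lie on 19 chromosomes, with 4 members on the X.

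Wildtype C57BL/6N mice, young (3 months by the series record, while the study's methods give a higher age) or old (27 months), received vehicle or fisetin by gavage, and all groups followed the same schedule of 1 week on, 2 weeks off and 1 week on. Fisetin is a plant flavonol given as a senolytic, a drug meant to remove senescent cells. Of the young mice, 4 libraries came from vehicle (Y VEH) and 4 from fisetin (Y FIS), and of the old mice, 3 from vehicle (O VEH) and 4 from fisetin (O FIS). Each group had 2 female and 2 male libraries (F1, F2, M1 and M2), except that O VEH had 1 male library. Every library pooled the aortas of 3 mice by its label, while the study's methods also allow smaller pools, with perivascular fat removed and viable single cells sorted, so p-values below measure the spread between such pools.

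The cytosolic ribosome is built from ribosomal RNAs and a common set of proteins, most of them in a single copy, which are made in matched amounts. Most mRNAs of these proteins begin with a short run of pyrimidines, the TOP motif, through which growth signals that pass by the kinase mTORC1 raise or lower their translation together. A few genes have a paralog whose product can take the same place in the ribosome, such as Rps27l beside Rps27 or Rpl22l1 beside Rpl22. Among blood and vessel cells, lymphocytes are small cells with much of their cytoplasm given to ribosomes, while endothelial cells (ECs) line the vessel, vascular smooth muscle cells (VSMCs) form its contractile layer and fibroblasts its outer one.

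Start sites were read for 63 of the 83 members from a RefSeq promoter table on GRCm38.p6, and 20 members were not in it. The 30 bases around the annotated start are shown for Rps27 and Rps27l, Rpl22 and Rpl22l1, and Rpl7l1, because these paralogs are compared across cell types below, and for Rps24, the most abundant member, with Rpsa and Rpl12, which were at an extreme in ECs and T cells. Capitals mark the longest unbroken run of C and T, or the first of runs of equal length.
Rps27, chr3:90213634-90213663, minus strand: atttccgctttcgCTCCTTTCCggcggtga
Rps27l, chr9:66946071-66946100, plus strand: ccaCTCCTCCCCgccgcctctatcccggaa
Rpl22, chr4:152325711-152325740, plus strand: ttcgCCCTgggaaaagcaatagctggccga
Rpl22l1, chr3:28805493-28805522, plus strand: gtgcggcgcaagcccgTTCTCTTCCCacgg
Rpl7l1, chr17:46782642-46782671, minus strand: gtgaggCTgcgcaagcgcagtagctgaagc
Rps24, chr14:24490663-24490692, plus strand: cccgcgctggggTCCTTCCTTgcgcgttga
Rpl12, chr2:32961697-32961726, plus strand: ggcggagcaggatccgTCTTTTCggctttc
Rpsa, chr9:120127751-120127780, plus strand: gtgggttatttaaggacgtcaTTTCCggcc
Within 30 bases on either side of the start, 32 of the 63 members (50.8%) had a run of at least 8 pyrimidines on the gene's strand, against 22.8% of all 27025 promoters in the table. The letters CTTTCC were found in 15.9% of members and 2.85% of all promoters, and on the opposite strand in 3.17% and 2.54%. Such a match describes letters in a window and is no measurement of the start that was used in these cells.

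The files held 130551 barcodes, of which 128019 had 200 to 7000 detected genes and at most 25% mitochondrial UMIs. Libraries kept 6372 to 14805 cells, with a median of 3313 to 6420 UMIs per cell, and any pair of libraries shared 8 to 51 barcodes, at most 0.574% of the smaller one. Cells were assigned to a type where at least 3 of that type's 6 to 8 markers were detected and at least 2 more than of any other type, which placed 112674 cells. All markers of each list were highest in the type gated by it, which the gate itself favours and which is no separate check. No member of the ribosomal set was a marker. Markers of the plasma cell gate made up 1 of its 10 leading genes, the others being immunoglobulin genes, and the 10 leading genes of the T cell gate included Dntt and Arpp21, which are genes of immature thymocytes. A type's name below stands for the cells that passed its gate, and the single EC gate did not separate kinds of ECs, such as capillary and arterial ones. Both Y FIS male libraries held few macrophages (18 and 3) and no gated neutrophils, so the whole aorta fit and the EC share of Y FIS are also given without them.

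Levels are given as counts per 1000000 UMIs (CPM), without TMM unless said. These counts come from the 3′ end of each RNA and do not grow with its length, and reads that match a processed pseudogene equally well may have been left out, so levels of different members are compared with that reserve. Over the 15 libraries, Rps24 was highest at 4033 ± 685 CPM (mean ± SD over libraries), followed by Rpl13 at 3746 ± 623 and Rplp1, a protein of the ribosomal stalk, at 3368 ± 447. Also among the 10 highest were Rps29 with 3067 ± 379.9 CPM, Rpl23 with 2997 ± 437 and Rps20 with 2932 ± 480.5. Rps12 and Rpl37a had 2772 ± 381 and 2525 ± 347 CPM, and Rps16, near the limit of the 10 highest, had 2516 ± 383 CPM. The means of neighbours among those given differed by less than their SD over libraries. The 10 highest members took 21.1% of the members' UMIs, so no few genes dominated the set.

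Of the 83 members, 69 had over 1000 CPM and 7 had under 500 CPM. The 7 were Rpl31 (494 CPM) and 6 genes named as paralogs of other members. Rpl22l1 had 415 CPM, Rps27l 218 and Rpl7l1 55.9. Rpl3l, a form of Rpl3 known from muscle, and Rpl39l, known from testis, had 1.10 and 0.540 CPM, and 2 UMIs of Rpl10l were counted in all. Rpl36al (501 CPM) and Rps27rt (36.7 CPM), whose symbols have longer endings, lie outside the set. Rows marked as pseudogenes, which also lie outside the set, held 0.0256% as many UMIs as the members.

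The share of all UMIs that fell on the members differed widely between cell types, and within a library the T cell share was 6.82 to 11.5 times that of neutrophils. T cells had 28.7% ± 4.04 (SD, n = 15 libraries; 21.9 to 37.7%) and B cells 27.4% ± 2.20 (n = 15; 24.3 to 32.5%). Natural killer (NK) cells followed with 20.6% ± 2.71 (n = 13). Fibroblasts had 13.2% ± 1.31 (n = 15; 11.1 to 16.2%), macrophages 12.9% ± 1.60 (n = 14) and mesothelial cells, which cover the outside of organs, 10.99% ± 1.70 (n = 12). ECs had 9.41% ± 0.884 (n = 15; 7.89 to 11.2%), plasma cells 9.10% ± 1.45 (n = 12) and VSMCs 8.34% ± 0.661 (n = 15). Schwann cells, the glia of peripheral nerves, had 5.21% ± 0.792 (n = 12). The lowest shares were those of pericytes, which wrap small vessels, with 3.64% ± 0.378 (n = 14), and of neutrophils, with 3.11% ± 0.359 (n = 13). A share is a part of all UMIs of a type, so it also depends on its other RNAs and is no count of member UMIs per cell. Libraries with fewer than 10 cells of a type were left out of that type.

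**Figure D1:**
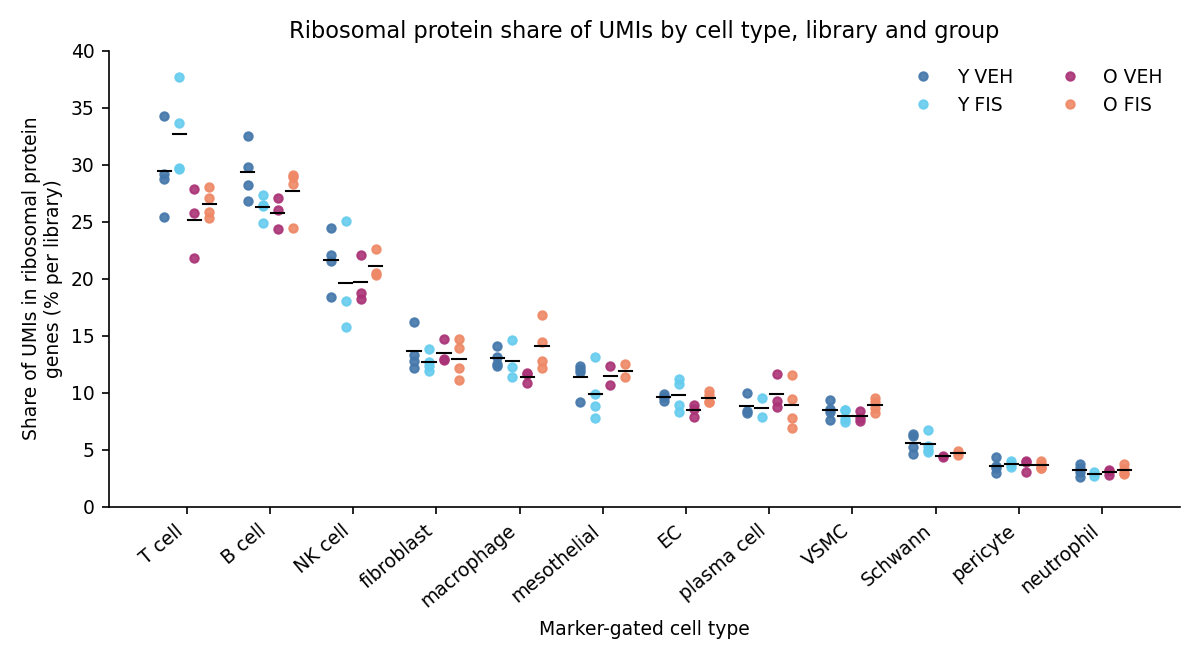
Percent of UMIs on the 83 ribosomal protein genes (y axis) in 12 marker-gated cell types (x axis, ordered by mean). Each point is 1 library, coloured by group, and each bar is a group mean. T and B cells lie between 21.9 and 37.7%, above every library of the types from fibroblasts downward.

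Several neighbours in this order could not be separated. T cells were above B cells in 8 of 15 libraries, fibroblasts above macrophages in 7 of 14 and ECs above plasma cells in 5 of 12. B cells were above NK cells in 13 of 13 libraries and NK cells above fibroblasts in 13 of 13. The ranges did not overlap between VSMCs and Schwann cells (12 of 12 libraries) or between Schwann cells and pericytes (11 of 11). Within a library, T cells had 2.55 to 3.57 times the share of ECs.

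Small subunit members took 45.5% ± 0.264 of the members' UMIs in the whole aorta. By type this was 41.6% ± 0.710 in pericytes, 45.2% in ECs, 46.3% in both B and T cells and 48.8% ± 0.423 in neutrophils. The means of the types thus lay between 41.6 and 48.8%. The libraries of pericytes (40.3 to 43.4%) and neutrophils (48.2 to 49.4%) did not overlap.

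Types also differed in UMIs per cell, with medians of 3811 in ECs, 6855.5 in T cells, 7169 in B cells and 9753 in fibroblasts, and the share moved with this depth. In ECs the members took 6.30% ± 0.720 of the UMIs of cells with 500 to 2000 UMIs, 7.58% at 2000 to 5000, 10.0% at 5000 to 10000 and 12.8% ± 1.14 above. B cells had 24.9%, 26.4% and 28.8% in the last 3 of these ranges, and fibroblasts 7.22%, 11.8% and 13.9%. In each range above 2000 UMIs the mean over libraries was at least 21.5% in B and T cells and at most 13.9% in ECs and fibroblasts. Single libraries went down to 16.1% in T cells at 2000 to 5000 UMIs and up to 16.7% in fibroblasts above 10000, but did not overlap within a range. In the shallowest range T and B cells lay closer to fibroblasts. T cells had 13.3% ± 6.80 (n = 7 libraries), B cells 11.4% ± 7.54 (n = 10) and fibroblasts 11.4% ± 3.53 (n = 15), while ECs had 6.30%. Plasma cells had a median of 28699 UMIs, and in cells of 1000 to 10000 UMIs alone their mean share was 3.02% in place of 9.10%, which moved them from beside ECs (8.59% in that range) to the level of neutrophils (3.06%).

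Each member was then compared between 6 types, on counts summed per library and type, with the library as a block. Each type was set against the mean of the other 5 with edgeR's quasi-likelihood test, and a gene was called at an adjusted p under 0.05 with a log2 fold change beyond 0.25 and detection in over 10% of cells. A total of 16249 genes were tested, 80 members among them. Rpl3l, Rpl39l and Rpl10l were too scarce to be tested. Since the other types make up each comparison, a gene high in lymphocytes is low elsewhere by construction.

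In B cells 79 of 80 members were called higher and 0 lower (background of all genes tested: 23.3% higher, 28.8% lower), with a median log2 fold change of 1.21 against -0.08 over all genes. T cells had 78 higher and 1 lower (background 20.9% and 29.7%), with a median of 1.07. ECs had 78 of 80 members lower and 0 higher (background 22.8% and 24.1%) with a median of -0.91, and VSMCs 79 lower and 0 higher (background 30.6% and 21.0%) with a median of -1.18. Fibroblasts had 3 members higher and 26 lower (background 27.6% and 21.8%), and macrophages 10 higher and 7 lower (background 23.7% and 24.8%). The medians in fibroblasts and macrophages were -0.17 and -0.02. Without TMM normalization the median of all genes moved from -0.00 to 0.16 in ECs, from -0.08 to -0.30 in macrophages and from -0.18 to 0.00 in VSMCs, and macrophages then had 3 members higher and 36 lower (background then 18.7% and 33.8%). With a stricter gate fibroblasts had 1 higher and 48 lower (background 24.5% and 28.5%), and macrophages 4 and 19 (background 24.4% and 24.8%).

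**Figure D2:**
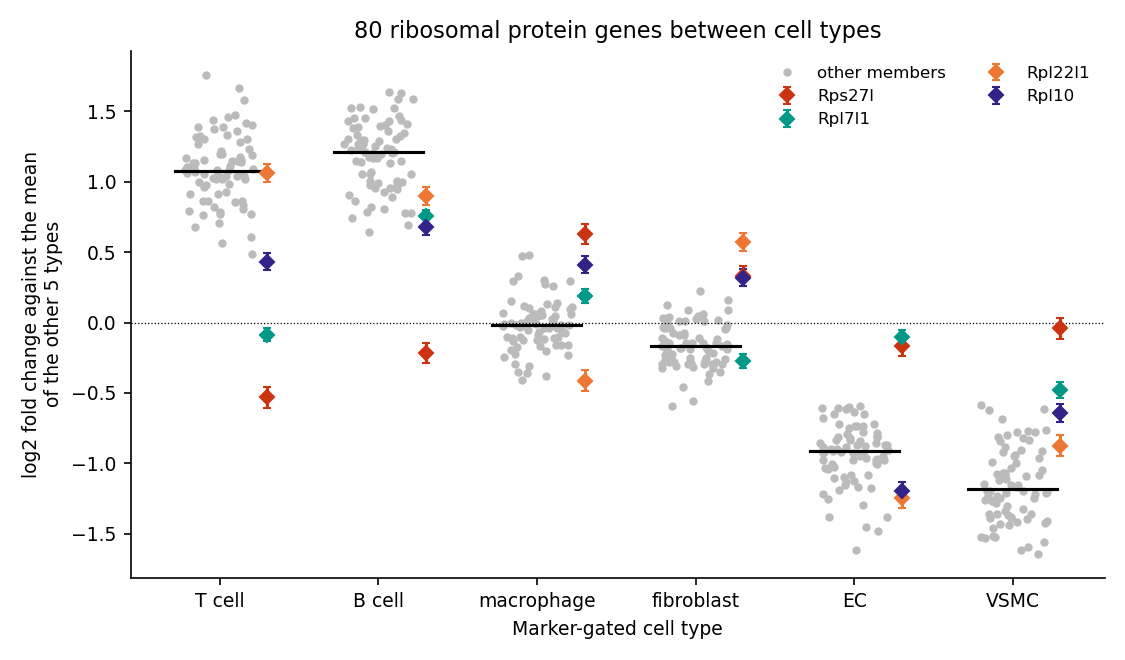
Log2 fold change of each of 80 ribosomal protein genes against the mean of the other 5 types (y axis) in 6 marker-gated types (x axis). Points are genes, black bars are medians and error bars are standard errors. In T cells Rps27l and Rpl7l1 lie at -0.53 and -0.09, below a median of 1.07, and in ECs at -0.17 and -0.10, above a median of -0.91; the direction in fibroblasts and macrophages depends on the scaling for members near 0.

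In ECs, Rpsa, the laminin receptor protein of the small subunit, had the lowest log2 fold change at -1.61 (SE 0.07), followed by Rpl12 at -1.48 and Rpl10a at -1.45. Rpsa had 815, 980 and 1100 CPM in ECs (lowest, median and highest of 15 libraries) and 4840, 5414 and 7795 CPM in T cells. The 2 ranges lay far apart. Rpl12 had 573 to 854 CPM in ECs and 2833 to 5964 CPM in T cells, and in T cells it had the highest log2 fold change of all members, 1.76 (SE 0.06). Rps15a and Rpsa followed there with 1.66 and 1.58. Of the members called in ECs, Rpl31 had the smallest difference, at -0.60 (SE 0.05).

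In B cells Rps19, Rps27 and Rps18 were highest, with log2 fold changes of 1.64, 1.63 and 1.58, and Rpl23a (0.64) and Rpl10 (0.68) were lowest of the members called. VSMCs had their largest deficits in Rps28 (-1.64), Rps13 (-1.61) and Rps19 (-1.60) and the smallest called ones in Rpl7l1 (-0.48) and Rpl4 (-0.59).

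Fibroblasts were called higher in Rpl22l1 (0.57), Rps27l (0.33) and Rpl10 (0.32), and Rpl27 (-0.56) and Rplp2 (-0.46) were among their lowest members. With the stricter gate Rps27l (0.18) and Rpl10 (0.19) no longer passed in fibroblasts, and without the Y FIS males Rps27l (0.20) did not. Macrophages had their largest differences in Rps27l (0.63), Rps9 (0.48) and Rps29 (0.47) and lowest in Rpl22l1 (-0.41), Rpl13a (-0.40) and Rps20 (-0.38). Rpl22l1 was therefore called in opposite directions in these types.

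In B and T cells Rps27l lay farthest of the members from their median. It was the member called lower in T cells, with a log2 fold change of -0.53 (SE 0.07), while its partner Rps27 was higher by 1.39. It did not pass in B cells (-0.22), ECs (-0.17) or VSMCs (-0.04). Without TMM it was called lower in B cells (-0.36), and its sign in VSMCs turned to 0.16. In CPM, Rps27l had 204 ± 13.4 in ECs, 244 ± 24.4 in fibroblasts, 225 ± 31.2 in VSMCs and 259 ± 51.0 in macrophages, against 170.4 ± 53.1 in B cells and 159.9 ± 50.3 in T cells. Among these 6 types the mean level of Rps27l was thus lowest in lymphocytes, where most members were highest. The means of B and T cells differed from that of ECs by less than their own SD. They also pool the groups, whose levels of Rps27l beside Rps27 are given below. Rps27 ran from 902 ± 144 CPM in VSMCs and 1359 ± 203 in ECs to 4417 ± 927 in T cells and 4556 ± 587 in B cells.

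The level of each paralog beside its partner separated the types further. Per 100 UMIs of Rps27 there were 3.86 ± 1.48 UMIs of Rps27l in B cells, 3.97 ± 2.10 in T cells and 6.54 ± 1.76 in NK cells. ECs had 15.3 ± 2.40, fibroblasts 16.6 ± 1.86, macrophages 18.6 ± 4.05 and VSMCs 25.3 ± 3.68. Plasma cells, which descend from B cells, had 35.0 ± 10.95, pericytes 35.6 ± 5.70 and Schwann cells 44.9 ± 13.6. The range of ECs over libraries, 12.0 to 20.6, lay above that of T cells, 1.87 to 8.08.

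Rpl22l1 had 29.6 ± 2.10 UMIs per 100 of Rpl22 in ECs, 30.8 ± 7.16 in B cells, 37.7 ± 3.31 in T cells, 41.2 ± 3.47 in VSMCs and 56.2 ± 3.03 in fibroblasts. Pericytes had 103 ± 21.0, from 1803 UMIs of Rpl22l1 and 1709 of Rpl22, so there the paralog was counted about as often as its partner. The lowest ratio was that of plasma cells, 16.4 ± 8.85. Rpl7l1 was scarce beside Rpl7 in every type, from 2.39 ± 0.401 per 100 in T cells through 5.63 ± 0.696 in ECs to 13.1 ± 2.69 in pericytes. Rpl3l had 17.2 ± 9.13 UMIs per 100 of Rpl3 in neutrophils, on 150 and 880 UMIs, and under 0.3 in each of the other types. Rpl39l had at most 0.081 per 100 of Rpl39.

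**Figure D3:**
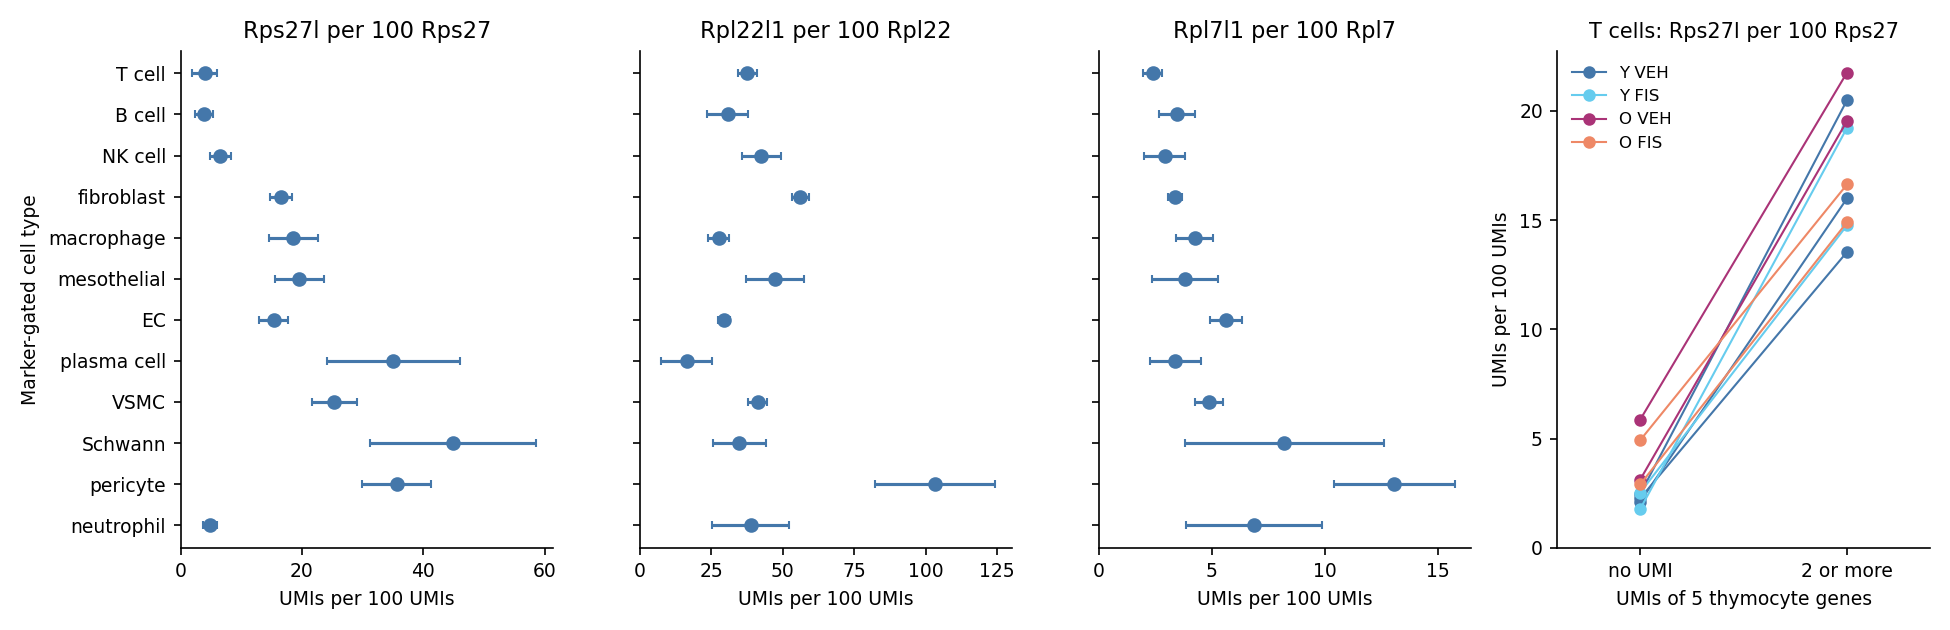
UMIs of a paralog per 100 UMIs of its partner by cell type for Rps27l, Rpl22l1 and Rpl7l1 (x axes of the first 3 panels, points and bars being mean and SD over libraries), and for Rps27l (y axis of the last panel) within T cells of 9 libraries, split by UMIs of 5 thymocyte genes. In the last panel each line is 1 library coloured by group, and all 9 lines rise, from a mean of 3.11 in cells with none of these UMIs to 17.4 in cells with 2 or more.

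The T cell gate was split by 5 genes of immature thymocytes (Dntt, Rag1, Rag2, Arpp21 and Ptcra), a list chosen after Dntt and Arpp21 were seen among the leading genes of the gate, so no test is given. Of the 6738 gated T cells, 849 had at least 2 UMIs of these genes. They were uneven over libraries, with 404 cells or 50.9% of the T cells in Y VEH F1, 137 or 40.8% in O FIS F2, and 0 to 16.4% in the others. The sources used here do not say whether thymus was included in the dissected tissue.

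In the 9 libraries with at least 10 such cells, the members took 19.7% ± 2.24 of their UMIs, against 29.5% ± 3.47 in T cells with none of these UMIs, and the share was lower in 9 of 9 libraries. Rps27 had 1965 ± 310.2 and 4609 ± 948 CPM in these cells, and Rps27l had 337 ± 42.6 and 135 ± 38.6 CPM. Rps27l per 100 of Rps27 was therefore 17.4 ± 2.89 (13.5 to 21.7) in the cells with thymocyte genes, near the level of fibroblasts, and 3.11 ± 1.38 (1.77 to 5.87) in the others. The cells with thymocyte genes also had fewer UMIs, with medians of 5002 ± 867 against 7490 ± 951, lower in 9 of 9 libraries, and the part of that depth in these differences was not tested.

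Most members kept close proportions to each other. Over the 80 tested members, those of the pairs included, the SD over libraries of a member's log2 proportion of the members' UMIs had a median of 0.067 in ECs, 0.057 in fibroblasts, 0.081 in macrophages, 0.089 in T cells and 0.105 in B cells. Rps27l varied most, with an SD of 0.568 in T cells and 0.443 in B cells. In ECs the most variable member was Rps3, which also has a role in DNA repair, with 0.174. Rpl35, a large subunit protein without a listed paralog, was chosen after its values were seen: of the members' UMIs in ECs it had 0.539, 0.566, 0.865 and 0.695% in Y VEH F1, F2, M1 and M2 and 0.619 to 0.714% in the other groups. Y VEH M1 was the highest of the Y VEH libraries for this gene in all 5 of these types, with 0.893% in B cells and 0.941% in fibroblasts.

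Other genes of the translation machinery were counted from lists written with the members, beside the background of all genes given above (23.3% higher and 28.8% lower in B cells, 20.9% and 29.7% in T cells, 24.1% and 22.8% in ECs). Of 20 elongation factors and other genes with TOP mRNAs, 20 were called higher in B cells, 18 higher in T cells, 20 lower in ECs and 19 lower in VSMCs, with medians of 0.88 and 0.76 in B and T cells and -0.75 in ECs. Eef1a1, which brings tRNA to the ribosome, had log2 fold changes of -0.77 in ECs, 0.54 in B cells and 0.77 in T cells. Tpt1, which encodes the translationally controlled tumour protein, had -0.54, 0.50 and 0.92. Fau, whose product is cut to release the small subunit protein that the rule could not find by name, had -0.84, 1.54 and 1.06.

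Of 26 genes of ribosome biogenesis, 23 were higher in B cells, 19 higher in T cells and 18 lower in ECs. Ncl, the nucleolar protein nucleolin, had log2 fold changes of 1.06 in B cells and -0.60 in ECs, Polr1d, a subunit of the polymerases for ribosomal RNA, 0.81 and -0.56, and Nop10, a small protein of RNA-modifying complexes, 0.77 and -0.59. Of 78 mitochondrial ribosomal proteins, 43 were higher and 5 lower in B cells, and 4 higher and 39 lower in ECs, with a median of -0.24. Of 25 initiation factors, 7 were higher and 3 lower in T cells and 2 higher and 7 lower in ECs (medians of 0.10 and -0.08), while 12 were higher and 2 lower in B cells, among them Eif5a (0.70) and Eif1 (0.37) higher and Eif4g2 (-0.47) lower. The 20 genes of the mTORC1 pathway were split, with 6 higher and 4 lower in ECs and 4 higher and 5 lower in B cells, shares near the background. Rheb, the activator of mTORC1, was higher in ECs (0.42) and lower in B and T cells (-0.47 and -0.66).

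The groups were first compared in the whole aorta. Members took 18.0, 16.8, 17.6 and 15.6% of all UMIs in Y VEH F1, F2, M1 and M2, and 13.1, 11.6, 14.4 and 14.2% in the same order of Y FIS. The O VEH libraries F1, F2 and M1 had 13.6, 13.9 and 14.5%, and the O FIS libraries 14.1, 18.4, 12.3 and 14.3%. The mean was 17.0% ± 1.03 for Y VEH and 13.3% ± 1.30 for Y FIS, then 13.997% ± 0.447 for O VEH and 14.8% ± 2.60 for O FIS. Y VEH lay above all libraries of Y FIS and O VEH, and O FIS F2 was the highest of all 15. As the share sums over genes chosen as a set, it is described here without a test.

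The part of lymphocytes differed between the groups as well. B and T cells gave 25.6% ± 9.05 of Y VEH UMIs, 10.4% ± 3.00 of those of Y FIS, 19.7% ± 3.68 of O VEH and 20.2% ± 13.997 of O FIS, where F2 had 40.1%, the most of any library. Y VEH F2 was an exception, with 14.7% from B and T cells, below the 16.5 to 23.7% of O VEH, beside a higher member share, and fibroblasts gave 49.7% of its member UMIs. Of the members' own UMIs, B and T cells gave 43.8% ± 12.2 in Y VEH and 22.6% ± 5.95 in Y FIS. ECs gave 20.1% ± 3.55 of the UMIs in Y VEH and 31.3% ± 3.58 in Y FIS. Counted as cells, B and T cells were 23.0% ± 6.94 of the cells in Y VEH (15.1 to 31.6%) and 10.3% ± 2.64 in Y FIS (8.01 to 13.2%), without overlap, then 13.3% ± 2.56 in O VEH and 14.3% ± 7.37 in O FIS. ECs were 33.1% ± 3.72 of the cells in Y VEH and 44.7% ± 3.89 in Y FIS. Measures of RNA quality also moved with the groups: a list of 5 genes whose rows can collect reads of ribosomal RNA held 0.501 to 0.606% of UMIs in Y VEH, 0.464 to 0.677% in Y FIS and 0.166 to 0.237% in O VEH, and early response genes of dissociation 0.472 to 0.517%, 0.440 to 0.513% and 0.384 to 0.455%. O FIS had 0.215 to 0.379% for the 5 genes and 0.456 to 0.562% for the dissociation genes, the latter above O VEH without overlap. Malat1, an RNA kept in the nucleus, made up 1.92% ± 0.0916 of UMIs in Y VEH and 2.23% ± 0.175 in Y FIS, where 3 of 4 libraries lay above every Y VEH library. Their part in the share was not tested.

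With each type's part of the UMIs held at its mean over libraries, so that only the shares within types differed, Y VEH had 15.4% ± 0.622, Y FIS 14.7% ± 0.925, O VEH 13.96% ± 0.337 and O FIS 14.7% ± 0.459. The difference of Y FIS from Y VEH went from -3.67 to -0.725 percentage points, and the groups then overlapped. That of O VEH from Y VEH went from -3.00 to -1.45 points, and these groups did not overlap in either form. O FIS was higher than O VEH by 0.782 points as measured and by 0.754 with the composition held, with overlap in both.

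**Figure D4:**
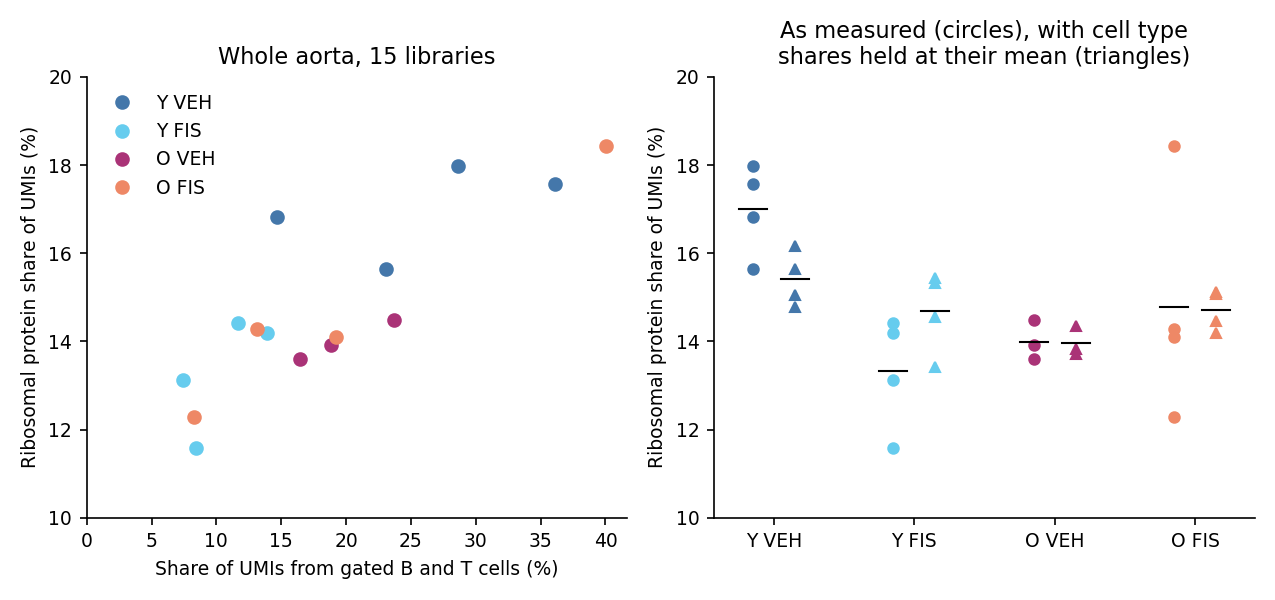
Left, percent of a library's UMIs from gated B and T cells (x axis) and percent of UMIs on the members (y axis), 1 point per library coloured by group. Right, the member share by group as measured (circles) and with the cell type composition held at its mean (triangles), bars being group means on an axis from 10 to 20%; the distance between Y VEH and Y FIS falls from 3.67 to 0.725 points.

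Gene by gene, counts summed per library were fitted in edgeR (quasi-likelihood, group and sex) over 21159 genes, of which 82 were members. Contrasts with the same vehicle group share its libraries and are not independent of each other. Members are not independent either, since most kept close proportions to each other over libraries. Counts of members at an unadjusted p or with the same sign are therefore not counts of separate results. In O VEH against Y VEH 0 members were called, as against 5 of all genes (0.0236%), while 46 of 82 members had an unadjusted p under 0.05, all lower in O VEH (background of lower genes at that p: 4.01%). DESeq2 called 7, all lower (its background of lower genes: 0.241%). The members' median log2 fold change was -0.35, against -0.03 over all genes. Leaving out 1 library gave 15 (without O VEH F2) to 63 members (without O FIS F2) at that p, with medians from -0.41 to -0.32, and cells of 1000 to 10000 UMIs alone gave 76.

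From here CPM of the members are TMM-normalized. Rps24 had 5262, 5127, 4954 and 4344 CPM in Y VEH against 3489, 2871, 3775 and 3599 for Y FIS, 3623, 3501 and 3739 for O VEH and 4143, 5401, 3029 and 3912 for O FIS. Y VEH was above both Y FIS and O VEH without overlap, and O FIS spanned most of the range. O VEH differed from Y VEH by -0.46 on the log2 scale (SE 0.17, edgeR adjusted p 0.39), and Rps20 by -0.44. At the other end were Rps27l with -0.08 (SE 0.11), Rpl7l1 with -0.07 and Rpl3l with 1.47 (SE 0.71, adjusted p 0.51 by edgeR). The scarce Rpl39l had -0.95 (SE 0.28), with 0.277 to 0.391 CPM in O VEH and 0.502 to 0.854 in Y VEH.

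In Y FIS against Y VEH edgeR again called 0 members and 0 of all genes, and DESeq2 called 18 members, all lower (its background of lower genes: 0.411%). An unadjusted p under 0.05 was found for 69 of 82 members, all lower in Y FIS (background of lower genes: 9.84%), with a median of -0.43. Without the Y FIS males this was 66 members and a median of -0.57, and in cells of 1000 to 10000 UMIs 40 members and -0.32. Rpsa had 3242, 3018, 3225 and 2501 CPM in Y VEH and 1968, 1598, 2137 and 2005 in Y FIS, with no overlap, and differed by -0.63 on the log2 scale (SE 0.17, edgeR adjusted p 0.25). Rpl32 and Rps13 followed with -0.56 each. Rps27l had 226, 221, 226 and 209 CPM in Y VEH and 236, 216, 182 and 213 in Y FIS, so its groups overlapped (-0.07, SE 0.10).

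In O FIS against O VEH 0 members were called by edgeR or DESeq2 and 1 had an unadjusted p under 0.05 (background 2.16%), or 3 without O FIS M1 and 0 without O VEH F1, although all 82 had a positive sign, with a median of 0.15. Without O FIS F2 the median was -0.0077. The share of all genes with a positive sign is not given here. Rpl39l and Rps27 were at the high end and Rpl23a, Rpl12 and Rps2 at the low end. The difference between the effect of fisetin in old and in young mice had a median of 0.57, with 0 members called by either tool and 65 at an unadjusted p under 0.05, all positive (background of positive genes: 6.13%). Its high end held Rpl39l, Rps13 and Rpl32 and its low end Rps27l, Rpl7l1 and Rpl23a. The cell mix was not held in this fit. Among young mice, B and T cells gave 25.6% of UMIs under vehicle and 10.4% under fisetin. Old mice had 19.7% and 20.2%. With the mix held, the fisetin difference in member share went from -3.67 to -0.725 points among the young. Among the old it went from 0.782 to 0.754 points. The part of the cell mix in the median of 0.57 was not tested. O FIS against Y VEH had 0 called by edgeR, 2 by DESeq2 (lower, where its background is 0.302%) and 10 at that p (background 12.9%), or 69 without O FIS F2, with Rpl12, Rpl23a and Rpsa lowest and Rpl3l, Rpl37 and Rpl7l1 highest.

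Within ECs the libraries of Y VEH had shares of 9.30, 9.62, 9.86 and 9.63%, those of Y FIS 8.89, 8.29, 10.8 and 11.2%, those of O VEH 8.88, 7.89 and 8.56% and those of O FIS 9.22, 9.14, 9.81 and 10.1%. O VEH lay below both Y VEH and O FIS without overlap, and Y FIS, with its higher male libraries, overlapped all groups. Y VEH had a mean of 9.60% ± 0.228, Y FIS 9.79% ± 1.42, O VEH 8.45% ± 0.504 and O FIS 9.57% ± 0.465. Without its males, Y FIS differed by -1.01 points from Y VEH with both sexes, and its 2 females also lay below the 2 Y VEH females. As kinds of ECs were pooled in 1 gate, the part of their mix in these differences was not tested. Other measures moved with these groups. The 5 genes whose rows can collect reads of ribosomal RNA held 0.711 to 0.909% of EC UMIs in Y VEH, 0.203 to 0.313% in O VEH and 0.306 to 0.562% in O FIS, and the dissociation genes 0.381 to 0.518%, 0.296 to 0.380% and 0.366 to 0.517%. Their part in the result was not tested.

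Of 81 members tested among 16288 genes in ECs, 0 were called in O VEH against Y VEH, where 8 of all genes were (0.0491%). DESeq2 called 2, both lower (its background of lower genes: 0.276%). Of the 81, 22 had an unadjusted p under 0.05, all lower in O VEH (background of lower genes: 4.54%), and all 81 had a negative sign, with a median of -0.19 against 0.01 over all genes. Leaving out 1 library gave 2 (without O VEH M1) to 42 members (without Y FIS F2) at that p, with medians from -0.24 to -0.13, and cells of 1000 to 10000 UMIs alone gave 5. Rps3 had 1139, 1436, 1322 and 1286 CPM in Y VEH and 1035, 957 and 945 in O VEH, lower without overlap (-0.37, SE 0.17, adjusted p 0.50 by edgeR). Rpl31 had 363, 405, 449 and 459 CPM in Y VEH and 378, 308 and 320 in O VEH, which overlapped in 1 library (-0.31, SE 0.10, adjusted p 0.36 by edgeR). Rpl38, Rpl36 and Rps28 were nearest to no difference, at -0.02, -0.04 and -0.04, and without O VEH F2 at 0.068, 0.039 and 0.049.

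In O FIS against O VEH all 81 members had a positive sign in ECs, with a median of 0.17, 0 called by edgeR or DESeq2 and 2 at an unadjusted p under 0.05 (background 2.41%), which was 0 without O VEH F2 and 26 without O VEH F1. Members kept close proportions to each other, so their common sign is not 81 separate results. The share of all genes with that sign is not given here. Rps23 had 1402, 1172 and 1285 CPM in O VEH and 1481, 1540, 1575 and 1682 in O FIS, which did not overlap (0.26, SE 0.11, adjusted p 1.0 by edgeR). Rps27 had 1374, 947 and 1145 CPM in O VEH and 1346, 1608, 1321 and 1378 in O FIS, with overlap (0.27, SE 0.16). Rps27l, Rps2 and Rpsa had 0.03, 0.05 and 0.06. In Y FIS against Y VEH 0 members were called by either tool and 0 had an unadjusted p under 0.05 (background 3.81%), with a median of -0.001, Rpl39l, Rpsa and Rpl8 at the low end and Rps28, Rps21 and Rps29 at the high end. In the whole aorta the same contrast had a median of -0.43.

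The difference of the fisetin effects between old and young ECs had 0 members called by either tool and 0 at an unadjusted p under 0.05 (background 3.07%), with a median of 0.16. Rpl39l was at its high end and Rpl41, Rpl39 and Rpl38 at its low end. O FIS against Y VEH had a median of -0.02, with 0 called by either tool, as against 0.00614% of all genes, and 2 at that p (background 8.26%), or 0 without Y VEH F2, with Rpl5, Rpl23a and Rps3 lowest and Rps28, Rpl38 and Rpl36 highest.

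In B cells the Y VEH libraries had shares of 32.5, 28.2, 26.8 and 29.8%, Y FIS 26.5, 24.9, 26.4 and 27.3%, O VEH 26.0, 27.1 and 24.3% and O FIS 24.4, 29.1, 28.3 and 28.9%. Y VEH was highest on average, and M1 of Y VEH overlapped Y FIS and O VEH. Of 80 members, 0 were called in O VEH against Y VEH by edgeR, as against 1.34% of 13569 genes, while 38 had an unadjusted p under 0.05, all lower (background of lower genes: 7.36%), and DESeq2 called 12, all lower (its background of lower genes: 1.29%). The number at that p was 10 without O VEH M1 and 50 without Y VEH M1. Rps20 had 8102, 6705, 6395 and 7066 CPM in Y VEH and 4965, 5402 and 4787 in O VEH, without overlap (-0.48, SE 0.12, adjusted p 0.069 by edgeR). Rps20 here, and Rps24 and Rplp0 below, were chosen for B or T cells after their values were seen.

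Rps24 had 11721, 9622, 7677 and 9750 CPM in Y VEH B cells and 7166, 7555 and 6260 in O VEH, lower without overlap (-0.48, SE 0.14, edgeR adjusted p 0.11). In Y FIS against Y VEH 40 members had an unadjusted p under 0.05 in B cells, all lower (background of lower genes: 4.64%), and 0 were called by edgeR or DESeq2. Without Y VEH F1, the B cell library with the highest share, 2 members had such a p. This library also stood apart in the follicular genes described next, with 321 CPM against 800.0 to 955 in the other Y VEH libraries. Rplp0, the base of the ribosomal stalk, had 5646, 3880, 3677 and 4230 CPM in Y VEH and 3073, 2687, 2766 and 3332 in Y FIS, without overlap (-0.55, SE 0.15, adjusted p 0.62 by edgeR). B cell states also moved with the groups: the follicular genes Ighd, Fcer2a and Cr2, without TMM, summed to 732 ± 281 CPM for Y VEH and 1050 ± 194 for Y FIS, against 248 ± 153 for O VEH and 377 ± 238 for O FIS. Their part in the result was not tested.

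In T cells the Y VEH libraries had shares of 25.4, 34.3, 29.2 and 28.8%, Y FIS 29.8, 29.6, 37.7 and 33.6%, O VEH 25.7, 21.9 and 27.9% and O FIS 27.1, 25.4, 28.1 and 25.8%. Y VEH overlapped both old groups through F1, the library with the most thymocyte genes. Among T cells with no UMI of these genes the share was 29.2 to 35.3% in Y VEH and 30.9 to 37.7% in Y FIS, above 22.8 to 28.1% in O VEH and 27.1 to 28.6% in O FIS without overlap. The list was chosen after genes of it were seen in this gate, so this split is described without a test. T cell states moved with age too, with 5 effector genes at 1889 ± 778 CPM, without TMM, in Y VEH and 9387 ± 2284 in O VEH and 5 naive genes at 1445 ± 221 and 759 ± 220. Their part in the result was not tested.

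By edgeR, 0 of 80 members were called in T cells in O VEH against Y VEH, as against 1.09% of 12739 genes, and 11 had an unadjusted p under 0.05, all lower (background of lower genes: 5.63%). DESeq2 called 1, which was lower (its background: 0.597%). Without O VEH F2 1 member had such a p, and without Y VEH F1, the library with most thymocyte genes, 27. Y FIS against Y VEH had a median of 0.22 in T cells, with 0 called by either tool and 1 at an unadjusted p under 0.05 (background 3.33%), which was 68 without Y VEH F2.

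Macrophages had shares of 14.1, 13.2, 12.5 and 12.4% in Y VEH, 10.8, 11.7 and 11.7% in O VEH and 12.8, 14.5, 12.2 and 16.9% in O FIS, with O VEH below both other groups. Among macrophages of 1000 to 10000 UMIs alone, O VEH was higher than Y VEH by 0.869 points. The rows that can collect reads of ribosomal RNA held 0.577 to 0.623% of macrophage UMIs in Y VEH and 0.186 to 0.261% in O VEH, and their part was not tested. In O FIS against O VEH 0 of 81 members were called by edgeR or DESeq2, and 7 had an unadjusted p under 0.05, all higher (background of higher genes: 4.28%), with a median of 0.34. This count was 0 without O VEH M1 and 47 without O FIS F1. Over the 12 types, the share was lower in O VEH than in Y VEH in 9 types, with no overlap in ECs, macrophages and Schwann cells, and these 3 types were also those where O FIS was above O VEH without overlap. Both comparisons used the same O VEH libraries, so the latter is no separate observation. In Y FIS against Y VEH 9 types were lower, and the groups overlapped in all 12. For Schwann cells this set 2 female O VEH libraries (4.47 and 4.37%, 11 and 20 cells) against O FIS F1 and M1 (4.56 and 4.86%, 18 and 10 cells). Schwann cells had 4.87% ± 0.621 in females (n = 7) and 5.70% ± 0.800 in males (n = 5), and the sexes of these libraries were not balanced.

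**Figure D5:**
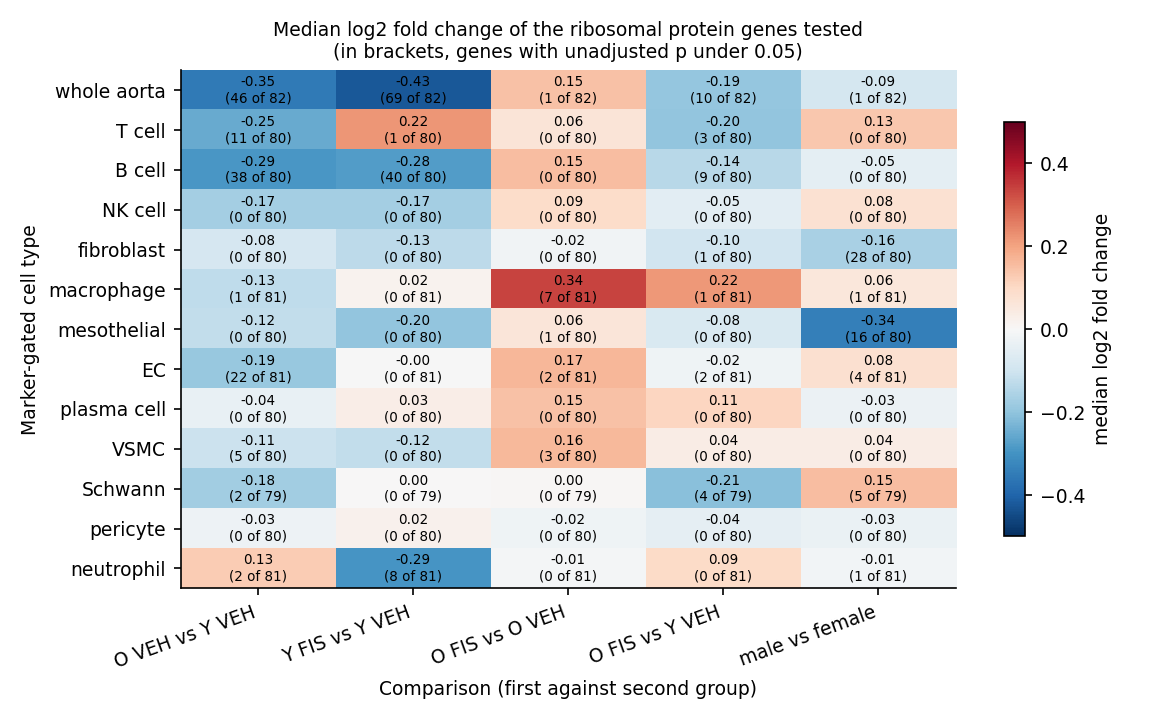
Median log2 fold change over the tested members (colour and number) by cell type or whole aorta (rows) and contrast (columns), with the number of members at an unadjusted p under 0.05 in brackets. The whole aorta has -0.43 for Y FIS against Y VEH and ECs have -0.001; edgeR called no member in any of the 65 entries shown.

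Across 13 tissues or types and 6 contrasts, 78 fits in all, edgeR called 0 members, as against 0.191% of the tests of all genes in these fits. In the whole aorta the elongation and TOP genes had medians of -0.24 in O VEH and -0.36 in Y FIS against Y VEH, ribosome biogenesis -0.11 and -0.29, mitochondrial ribosomal proteins -0.15 and -0.17 and the mTORC1 pathway 0.01 and -0.03. In these contrasts 0 genes of these lists were called, while among the rows that can collect reads of ribosomal RNA Cdk8 and Cmss1 fell in O VEH, and in ECs also Camk1d and Lars2.

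In males against females 0 members were called by edgeR or DESeq2 in the whole aorta, as against 0.0614% of all genes, and 1 had an unadjusted p under 0.05 (background 9.63%). ECs had 0 called by either tool (0.104% of all genes) and 4 at that p (background 12.3%), from 1 without Y VEH F1 to 10 without O VEH F1. In fibroblasts all 80 members had a negative sign, with a median of -0.16. Their common sign is not 80 separate results, and the share of all genes with it is not given here. By edgeR 0 were called and by DESeq2 1, which was lower, as against 2.81% of 16059 genes by edgeR and 1.48% of genes called lower by DESeq2. Without Y VEH F1 edgeR called 1 lower (background of lower genes: 0.819%). In the full fit 28 had an unadjusted p under 0.05 (background of lower genes: 8.95%), from 10 without O FIS M1 to 62 without Y FIS F2. The fibroblast share was 13.9% ± 1.32 in females (n = 8) and 12.3% ± 0.615 in males (n = 7), while in ECs it was 8.91% ± 0.564 and 9.99% ± 0.848. Among EC libraries the Y FIS males were highest, up to 11.2%. O VEH, the lowest group in ECs on average at 8.45%, had 2 female libraries and 1 male. Rps4x, the member of the small subunit that escapes X inactivation in humans, had a log2 fold change of -0.07 (SE 0.11) between males and females in the whole aorta and 0.12 (SE 0.08) in ECs.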

How the data were processed

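Single cells of 15 libraries were sequenced on the 10x 3′ platform, and the authors made the deposited counts, whole UMI counts per gene and barcode, with Cell Ranger 8.0.1 on GRCm39, per the labels and the submitters' processing notes. Seurat 5.2.0 is also named there, but the authors' cell annotation was not used here. Kept barcodes had 200 to 7000 genes and at most 25% mitochondrial UMIs. Types were gated with 12 marker lists. No doublet caller was run, and the gap of 2 markers did not remove every cell that carried markers of 2 types, so doublets can remain. Counts were summed per library and type with at least 10 cells and TMM-normalized, and edgeR 4.0.16 (glmQLFTest, limma 3.58.1) was fitted over all genes passing edgeR's expression filter, with group and sex as terms. Calls needed a Benjamini-Hochberg adjusted p under 0.05, a log2 fold change beyond 0.25 and detection in over 10% of cells. DESeq2 1.42.0 was an alternative. Other alternatives were no TMM, library totals without the members, no cell filter, no filter on low counts, the detection filter before adjustment, no sex term, only the groups compared, a replicate block, a stricter gate, a depth range of 1000 to 10000 UMIs, fits without the Y FIS males and leaving out each library. Scripts were tested on simulated data. The depth was 4.83e+07 to 7.37e+07 UMIs per library. Start sites came from RefSeq on GRCm38.p6 and gene positions from GRCm39, and the 2 builds were not mixed. The members, lists and tests were chosen with earlier results of these data known. Genes named were the 10 members with the highest mean share, paralog pairs, Rps4x, the 3 largest and 3 smallest log2 fold changes of each contrast in whole aorta and ECs and of each type, the 3 most abundant genes of each list and every called gene of a list. Some genes that this rule names are not reported here. Others are said to be chosen after their values were seen.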

Additional observations from a re-analysis of the deposited data

Results flagged for a closer look

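In groups of 4 libraries, 1 library was far from the other 3 in 5 of 132 groups and measures examined, where chance alone flags about 1 in 20. O VEH, with 3 libraries, was not examined in this way, and CPM are TMM-normalized. The mesothelial share of member UMIs was 9.18% in Y VEH M2 and 11.8 to 12.3% in the other Y VEH libraries. In the whole aorta Rpl7l1 had 77.5 CPM in O FIS F2 and 52.0 to 53.9 in the other O FIS libraries, and this library also had the most UMIs from B and T cells. In ECs Rpl22l1 had 190.7 CPM in Y FIS F2 and 220.3 to 224 in the other Y FIS libraries. Rpl22 had 684 CPM in ECs of Y VEH F1 and 773 to 782 in the others of its group, and Rpl7 had 1198 CPM in ECs of Y VEH F2 and 1046 to 1068 in the others.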

How the results depend on the processing

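Of 1523 alternatives to the 78 counts of called members, 1505 also had 0. DESeq2 called 7, 18 and 2 members in the whole aorta for O VEH, Y FIS and O FIS against Y VEH, 2 in ECs, 12 in B cells and 1 in T cells for O VEH, 4 in B cells for O FIS against Y VEH (all lower, background 1.04%), 2 in VSMCs for the difference of fisetin effects (higher, background 0.185%) and 1 in fibroblasts for sex. In B cells O VEH against Y VEH had 1 with the detection filter, 2 without TMM, 3 with the stricter gate and 0 to 2 when 1 library was left out (2 without O FIS F1 and 2 without O FIS F2), all lower, with backgrounds of lower genes of 0.518%, 0.14%, 0.271%, 0.315% and 0.96%. T cells had 1 with the detection filter and 0 to 1 when 1 library was left out (1 without O FIS F2), with 0.499% and 0.274%. Fibroblasts had 1 for sex without TMM and 0 to 1 when 1 library was left out (1 without Y VEH F1), with 1.0% and 0.819%. The cause was not tested.

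Limited to cells of 1000 to 10000 UMIs, the share was 12.5% in the whole aorta, 10.7% in fibroblasts, 5.67% in VSMCs, 9.52% in macrophages and 3.02% in plasma cells, O VEH differed from Y VEH by -4.63 points in the whole aorta, 0.869 in macrophages and -1.94 in Schwann cells, and Y FIS from Y VEH by 2.28 in macrophages. As a mean of cells it was 8.21% in ECs, 7.31% in VSMCs and 12.4% over all cells, and O FIS was 1.29 points above O VEH in Schwann cells. Y FIS minus Y VEH was -0.725 points with composition held, -1.01 in ECs without the Y FIS males and -1.84 in macrophages with the stricter gate.

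Between types, fibroblasts had 30, 48 and 37 members lower and 3, 1 and 2 higher without TMM, with the stricter gate and without the Y FIS males, and macrophages 36, 19 and 10 lower and 3, 4 and 8 higher, while B cells had 1 lower, Rps27l, without TMM (background 32.6%). The backgrounds not given above were 23.2% lower and 26.6% higher in fibroblasts without TMM and, without the Y FIS males, 26.0% and 25.7% in fibroblasts and 26.9% and 23.2% in macrophages. Of 1187 alternatives for named genes, 38 turned the sign, all of values near 0 or of scarce genes, 3 fell below the threshold and 15 passed it. In the whole aorta Rps27l turned to 0.086 for O VEH (depth range), and to 0.015 (no TMM) and 0.18 (depth range) for Y FIS, Rpl3l to 0.029 (no sex term) and 0.79 (no Y FIS males) and Rpl39l to -0.0085 (only the groups compared) and -0.62 (depth range) for Y FIS. Rpl38 in ECs turned to 0.0042 under the replicate block and 0.0039 in the depth range. Rps27l in VSMCs had 0.16 (no TMM), 0.024 (stricter gate) and 0.072 (no Y FIS males), Rpl7l1 0.061 in ECs and -0.033 in macrophages without TMM, and Rpl22 in macrophages -0.19, -0.058 and -0.011 under the same 3 settings. When 1 library was left out the range was -0.12 to 0.018 for Rpl7l1 in the whole aorta, -0.88 to 0.40 for Rpl3l, -0.10 to 0.23 for Rpl39l, -1.06 to 0.16 for Rpl39l in ECs, -0.18 to 0.049 for Rps28, -0.17 to 0.039 for Rpl36, -0.18 to 0.068 for Rpl38, -0.038 to 0.11 for Rps27l and -0.017 to 0.11 for Rps2 in ECs with fisetin.

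Libraries shared a replicate number only: the correlation of same-numbered deviations was above 0.1 in 0 of 21 pairs in ECs and 2 of 21 in the whole aorta. With the replicate number as a block, 0 members were called in 65 fits. Rare types rest on few cells per library, and marker gates set which cells are counted.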

Other observations

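Rps27l differed in males from females by -0.24 on the log2 scale in the whole aorta (SE 0.07, edgeR adjusted p 0.33), and was also negative in ECs (-0.16), macrophages (-0.33), T cells (-0.29) and B cells (-0.18), and did not pass the adjusted threshold in any of them. Neutrophils (0.37), Schwann cells (0.26) and NK cells (0.08) had the opposite sign. The 5 thymocyte genes, beside which Rps27l was high, summed to 8.68 to 1841 CPM, without TMM, in gated T cells of females and 2.80 to 556 CPM in those of males, with 3 of 8 female libraries above every male one, and their part in this difference was not tested.

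In macrophages Rpl3l had 0.969 ± 0.329 TMM-normalized CPM in Y VEH (n = 4) and 5.32 ± 3.91 in O VEH (n = 3), with 9.71, 2.22 and 4.03 CPM in the O VEH libraries, all above the 4 of Y VEH (log2 fold change 2.27, SE 0.59, adjusted p 0.16 by edgeR). The gene was scarce, with 217 UMIs in macrophages of 14 libraries, and its levels in Y FIS and O FIS are not given here. Neutrophils, where the gene was highest beside Rpl3, numbered 99, 27, 148 and 37 in Y VEH and 162, 118 and 229 in O VEH, and their part in this difference was not tested.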
